A study of Mus musculus with 6 samples.

Results

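The D-type cyclins, their kinase partners Cdk4 and Cdk6, the inhibitors of these kinases and their substrate Rb1 were followed in B/CMBA.ov cells, a line from BALB/c mouse ovary. The 10 genes were Ccnd1, Ccnd2, Ccnd3, Cdk4, Cdk6, Cdkn2a, Cdkn2b, Cdkn2c, Cdkn1b and Rb1, of 21124 named genes on the array. They were chosen by name, and each was read from the transcript cluster (the array's unit for one transcript locus) whose exon-level probe sets carry its symbol. Where a gene had several clusters, the one with the highest mean was used. Cells given a mimic of mmu-miR-15a-3p were measured on 3 arrays and cells given a negative control mimic on another 3, each at 20 nM with a lipid reagent, and RNA was taken 48 h later. Both groups thus share the transfection, and the study asks which transcripts differ between them. All arrays come from 1 cell line, and nothing in the labels tells whether separate cultures stand behind the replicates. The p-values cover the spread among the 6 arrays, and part or all of it may be technical. Their number limits the precision.

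D-type cyclins are made in response to growth signals and bind Cdk4 or Cdk6, and the active kinase phosphorylates the retinoblastoma protein, which then releases the E2F factors that switch on genes of S phase. The Ink4 proteins bind Cdk4 and Cdk6 and keep the cyclin from them, while p27 of the Cip/Kip family binds cyclin and kinase together. In human and mouse cells the 5′ arm of the miR-15a hairpin and its relatives of the miR-16 family are known to act on messages of this pathway, cyclin D1 among them. The mimic used here carries the other arm, so the mature sequences of both arms and of 2 relatives of the 5′ arm are shown to compare their seeds, bases 2 to 8, which are in capitals.
mmu-miR-15a-3p: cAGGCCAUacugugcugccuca
mmu-miR-15a-5p: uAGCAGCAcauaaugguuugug
mmu-miR-16-5p: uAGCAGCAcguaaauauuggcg
mmu-miR-322-5p: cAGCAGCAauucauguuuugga
The sequences are those of RefSeq. On GRCm38.p6 the 3′ arm lies at chr14:61632038-61632059 and the 5′ arm at chr14:61632075-61632096, both on the minus strand. The seed of the 3′ arm, AGGCCAU, was carried by 1 of the 1679 mature mouse microRNAs in that table, miR-15a-3p itself. The seed of the 5′ arm, AGCAGCA, was carried by 10. The labels give no sequence for the mimic or for its control.

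The deposited values were log2 signals of 35556 clusters with array medians between 6.94 and 7.01. Across clusters, r lay between 0.993 and 0.996 for pairs of arrays within a group and between 0.989 and 0.993 for pairs across groups. All 8 epithelial and mesothelial markers examined and all 4 fibroblast markers had a mean of at least 7.27, the median over all gene means. None of the 5 granulosa, 4 theca and luteal, 3 oocyte and 3 endothelial markers did (0 of each), and 1 of 3 leukocyte markers did, Cd68. With the mimic, 3 of the 8 epithelial and mesothelial markers rose and 3 fell, 1 fibroblast marker rose and 1 oocyte marker fell. Of all genes, 6.09% rose and 5.63% fell (limma adjusted p under 0.05). Among genes with a mean of at least 7.27, 19.2% were called in either direction. The part of these markers in the results was not tested. In bulk RNA, fewer cells of a type and less RNA per cell cannot be told apart.

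The message of cyclin D1 was higher with the miR-15a-3p mimic and those of cyclin D3 and Cdk6 were lower, while cyclin D2, Cdk4, Rb1 and the inhibitors did not pass the test. Ccnd1 rose 1.24-fold, and Ccnd3 and Cdk6 fell to ratios of 0.748 and 0.744. Of the 10 genes, 1 rose and 2 fell at a limma adjusted p under 0.05, against 6.09% of all genes that rose and 5.63% that fell. The same 3 of 10 were the ones whose arrays did not overlap between groups, 1 with the mimic above and 2 with it below, against 29.6% of all genes, 16.4% above and 13.2% below. The median log2 fold change was 0.0016 over the 10 genes and 0.0065 over all genes. Of the 10 genes, 9 had a mean signal of at least 7.27, and among all genes that bright 19.2% were called, against 11.7% of all genes.

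**Figure D1:**
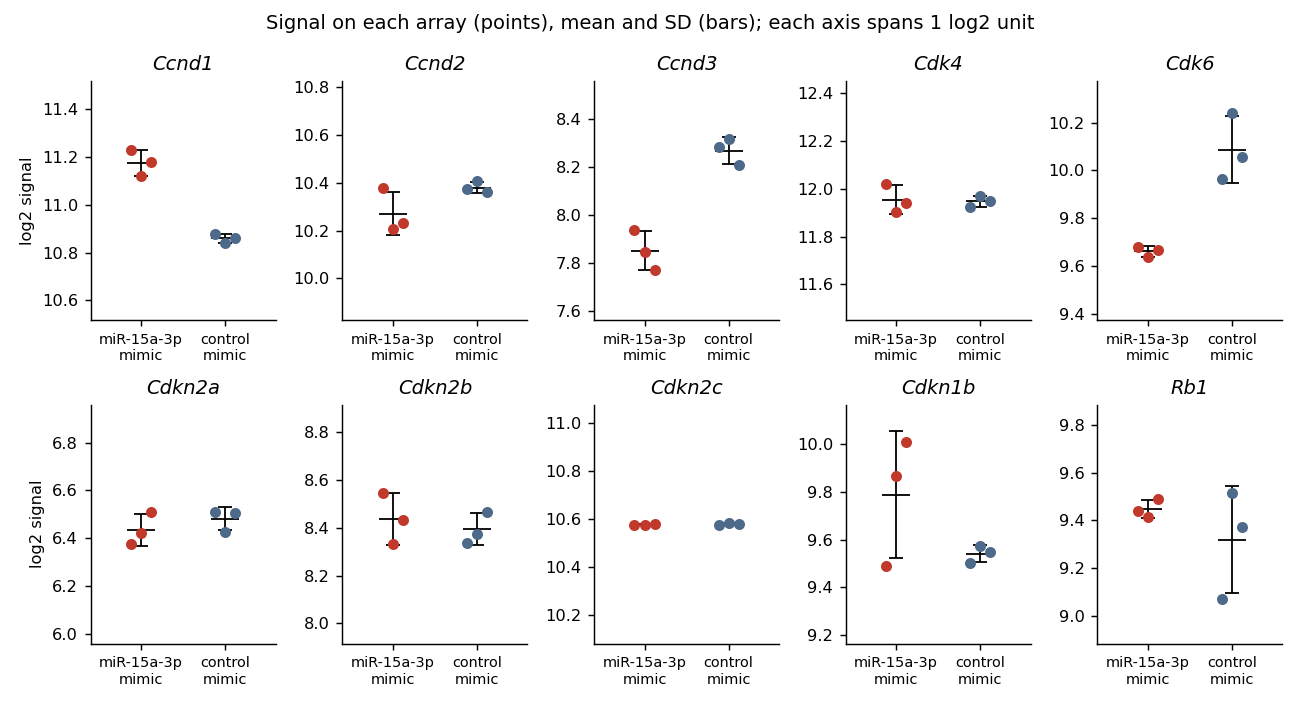
Log2 signal on each array (vertical axis, 1 log2 unit in every panel) for the 10 genes, with the 3 arrays of the miR-15a-3p mimic in red to the left of the 3 of the control mimic in blue. Horizontal bars are means and error bars are SDs (n = 3). The points of the groups stand apart for Ccnd1, Ccnd3 and Cdk6 and overlap for the others.

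Cyclin D1, cyclin D2 and cyclin D3 are the alternative activating partners of Cdk4 and Cdk6, and their messages did not all move one way. Ccnd1 had log2 signals of 11.23, 11.12 and 11.18 with the miR-15a-3p mimic, against 10.88, 10.84 and 10.86 with the control mimic. Each mimic array lay above each control array. The means were 11.18 ± 0.0535 with the mimic and 10.86 ± 0.0188 with the control (n = 3, SD), with a log2 fold change of 0.32 ± 0.06 (SE, adjusted p = 0.0094 by limma). This call was lost, at the threshold, without control replicate 3 (log2 fold change 0.32, limma adjusted p = 0.0501).

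Ccnd3 moved the other way. Its log2 signals were 7.94, 7.85 and 7.77 with the mimic, against 8.28, 8.32 and 8.21 with the control. Each mimic array lay below each control array, and the means were 7.85 ± 0.0825 with the mimic and 8.27 ± 0.0566 with the control (n = 3, SD). The log2 fold change was -0.42 ± 0.07 (SE, adjusted p = 0.0040 by limma). It kept the call with any single array left out, with log2 fold changes from -0.46 to -0.38.

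Ccnd2 had log2 signals of 10.38, 10.21 and 10.23 with the mimic, against 10.37, 10.41 and 10.36 with the control. Mimic replicate 1 lay among the control arrays and the other 2 mimic arrays lay below them. The log2 fold change of -0.11 had a 95% interval from -0.26 to 0.04 and missed the threshold (adjusted p = 0.38 by limma), so a fall of the size seen for Ccnd3 lies outside that interval.

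Cdk4 and Cdk6 are the catalytic partners of the D-type cyclins, and here they parted. Cdk6 had log2 signals of 9.68, 9.64 and 9.67 with the mimic, against 9.96, 10.24 and 10.06 with the control. The mimic arrays lay close together and below every control array, while the control arrays were spread more widely, with SDs of 0.0220 with the mimic and 0.141 with the control (n = 3). The log2 fold change was -0.43 ± 0.08 (SE, adjusted p = 0.0072 by limma), and with single arrays left out it ranged from -0.49 to -0.35 and stayed called.

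Cdk4 had log2 signals of 12.02, 11.90 and 11.94 with the mimic, against 11.92, 11.97 and 11.95 with the control. The groups overlapped, and the log2 fold change of 0.0070 had a 95% interval from -0.13 to 0.15 (limma adjusted p = 0.97). The fall of Cdk6 lies outside the interval of Cdk4, though the difference between both changes was not itself tested.

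The Ink4 inhibitors, which bind Cdk4 and Cdk6 alone among the cell cycle kinases, did not pass the test. Cdkn2c, which encodes p18, had log2 signals of 10.58, 10.57 and 10.58 with the mimic, against 10.57, 10.58 and 10.58 with the control. These 6 values lay closer together than those of the other 9 genes, and the 95% interval of the log2 fold change ran from -0.13 to 0.12 (limma adjusted p = 0.98). Cdkn2b, which encodes p15, had log2 signals of 8.55, 8.33 and 8.43 with the mimic, against 8.34, 8.38 and 8.47 with the control. The groups overlapped, with a log2 fold change of 0.04 and a 95% interval from -0.12 to 0.21 (limma adjusted p = 0.79).

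Cdkn2a encodes p16 of the Ink4 family and, from another first exon, p19Arf, which acts on the p53 pathway. It had log2 signals of 6.38, 6.42 and 6.51 with the mimic, against 6.51, 6.43 and 6.51 with the control. The groups overlapped, and the log2 fold change of -0.05 had a 95% interval from -0.19 to 0.10 (limma adjusted p = 0.75). It was the 1 gene of the 10 with a mean below the median of gene means, and no detection call came with the values, so it could not be told whether this signal stood above background. In the authors' deposited table the probe set assigned to the p16 transcript alone had a ratio of 0.998 (unadjusted p = 0.987). The 2 assigned to the p19Arf transcript alone had ratios of 0.906 and 1.20 (unadjusted p = 0.294 and 0.279).

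Cdkn1b encodes p27, which holds cyclin E and cyclin A kinases inactive and is itself bound by cyclin D complexes. Its brighter cluster, read by 1 probe set, had log2 signals of 9.49, 9.87 and 10.01 with the mimic, against 9.50, 9.57 and 9.55 with the control. Mimic replicate 1 lay below the control arrays and the other 2 mimic arrays lay above them. The log2 fold change of 0.25 ± 0.12 (SE, adjusted p = 0.23 by limma) did not pass, but without mimic replicate 1 it was 0.39 and was called (limma adjusted p = 0.0167).

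A further Cdkn1b cluster of nearly the same mean, read by 6 probe sets, had log2 signals of 9.86, 9.61 and 9.72 with the mimic, against 9.65, 9.53 and 9.55 with the control. There mimic replicate 1 was the highest array, so the 2 clusters placed that array on opposite sides. This cluster's log2 fold change was 0.15 (limma adjusted p = 0.27), against 0.25 for the cluster used.

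Rb1, the substrate through which the D-type cyclins act, had log2 signals of 9.44, 9.42 and 9.49 with the mimic, against 9.07, 9.51 and 9.37 with the control. Control replicate 1 stood below the other 5 arrays, which lay close together. The log2 fold change of 0.13 had a 95% interval from -0.10 to 0.36 (limma adjusted p = 0.52), and it was 0.0053 without control replicate 1.

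**Figure D2:**
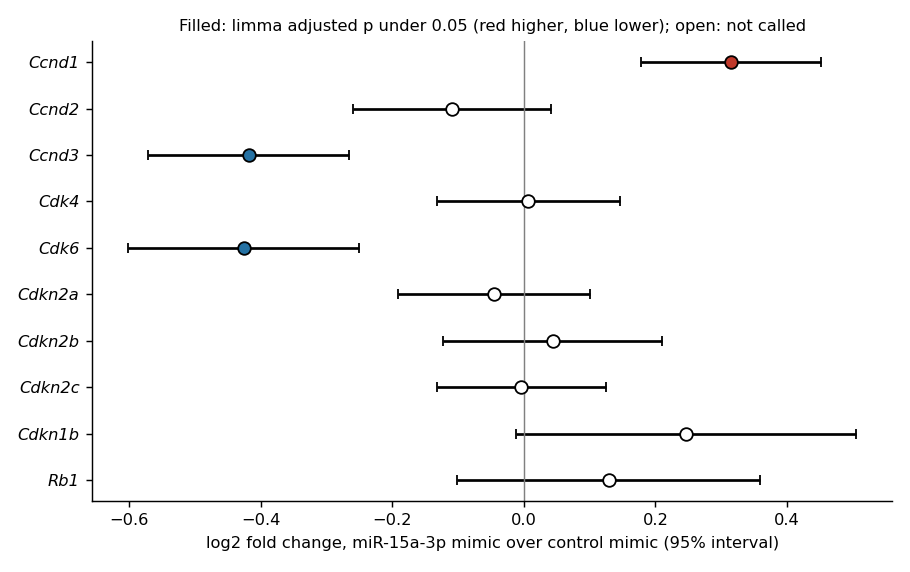
Log2 fold change, miR-15a-3p mimic over control mimic (horizontal axis), with its 95% interval from the limma fit across all genes, for each of the 10 genes (rows, by role). Filled points passed an adjusted p under 0.05: Ccnd1 at 0.32, Ccnd3 at -0.42 and Cdk6 at -0.43. Open points did not, and their intervals include 0.

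The second deposited table gives the authors' own comparison at the level of exons, with unadjusted p-values, and its variances are those of a comparison of 2 with 3 arrays. With p under 0.05, 5.51% of all probe sets were higher and 6.44% lower in the authors' deposited table. All 8 of the 8 Ccnd1 probe sets there were higher with p under 0.05, with ratios from 1.17 to 1.40. One of these 8 belongs to a neighbouring cluster that otherwise reads LTO1, whose 6 other probe sets were all lower in the authors' deposited table, 0 of them with p under 0.05. That cluster as a whole therefore does not measure Ccnd1, and its log2 signals of 9.53, 9.46 and 9.49 with the mimic, against 9.37, 9.79 and 9.73 with the control, were not used.

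All 6 of the 6 Ccnd3 probe sets were lower in the authors' deposited table, 2 of them with p under 0.05. The last in ID order had a ratio of 0.369 (unadjusted p = 0.0074), while the other 5 lay between 0.663 and 0.912. The first 2, assigned to 2 of the 3 RefSeq forms of the gene, had ratios of 0.768 and 0.912, and the 4 assigned to all 3 forms had 0.663, 0.693, 0.786 and 0.369. The ratios thus differed between probe sets, and whether the fall itself differed between stretches of this gene was not tested.

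For Cdk6 the authors' deposited table had all 8 of the 8 probe sets lower, 3 of them with p under 0.05, with ratios from 0.546 to 0.887. The authors' deposited table had each of the 10 Ccnd2 probe sets lower, none with p under 0.05 (0 of 10), with a median ratio of 0.902. For Cdkn1b all 7 of 7 were higher in the authors' deposited table, 1 with p under 0.05, with a median ratio of 1.10. That 1 is the single probe set of the Cdkn1b cluster used above, so it is not a separate measurement. Cdk4 had 6 higher and 4 lower, with a median ratio of 1.01. For Rb1, 19 of 28 were higher and 9 lower in the authors' deposited table, 1 each with p under 0.05. Probe sets of 1 gene share their RNA and are not replicates.

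**Figure D3:**
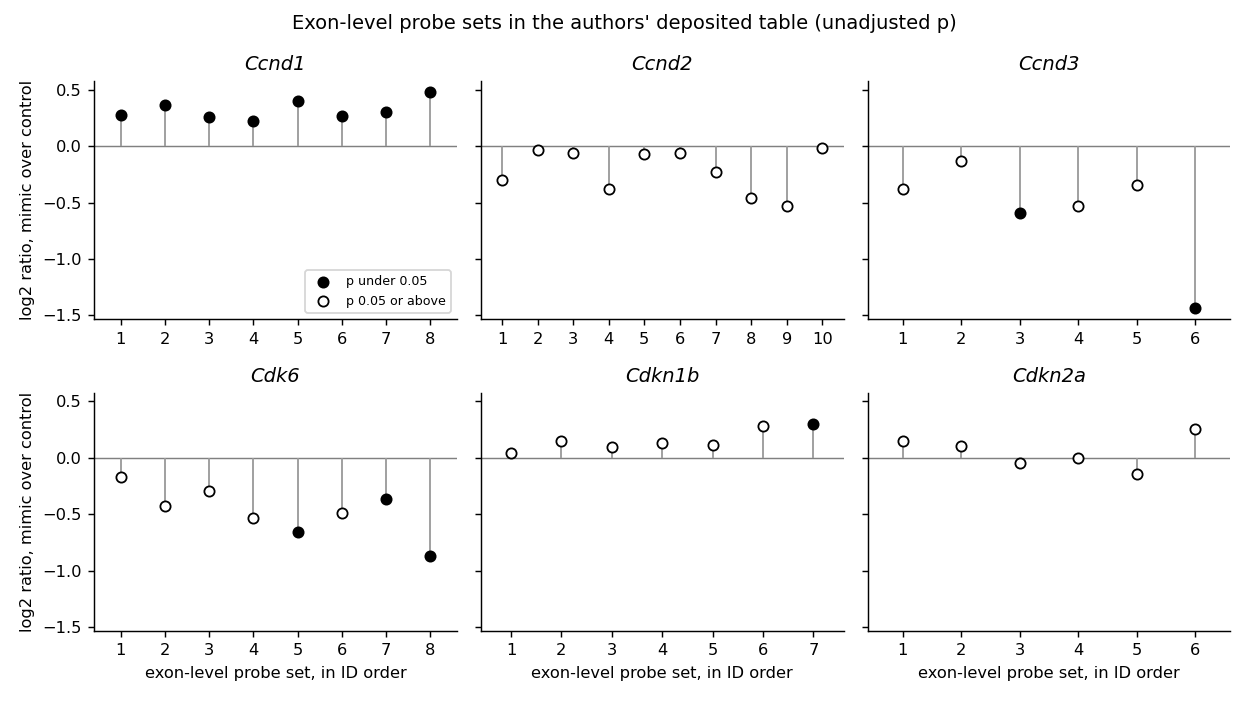
Log2 ratio, mimic over control, of each exon-level probe set (points, in the order of their IDs along the horizontal axis) in the authors' deposited table for 6 of the genes. Filled points had an unadjusted p under 0.05. All 8 points of Ccnd1 lie above 0, all 6 of Ccnd3 and all 8 of Cdk6 lie below it, and the last Ccnd3 point is the lowest.

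Upstream sequence was examined for the genes with an entry in the RefSeq promoter table, 7 of the 10, with 10 start sites among them. Ccnd1, Ccnd2 and Rb1 had no entry there and were not searched. The 250 bases before the start site are shown for the 2 genes that fell and for Cdk4, the kinase that did not pass the test. Of the 2 Ccnd3 start sites the one shown is that with a motif match, and the other, whose window is chr17:47504801-47505050, held 0 matches to any motif searched. Capitals mark the E-box CACGTG, which is bound by Myc and its relatives, and TGACGT, part of the cyclic AMP response element. Coordinates are on GRCm38.p6, all on the plus strand.
Ccnd3, chr17:47593217-47593466: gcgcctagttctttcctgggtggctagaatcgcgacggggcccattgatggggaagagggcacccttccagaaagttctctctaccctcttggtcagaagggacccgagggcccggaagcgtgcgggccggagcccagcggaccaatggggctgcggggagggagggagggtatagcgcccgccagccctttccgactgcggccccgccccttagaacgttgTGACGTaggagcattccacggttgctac
Cdk6, chr5:3343643-3343892: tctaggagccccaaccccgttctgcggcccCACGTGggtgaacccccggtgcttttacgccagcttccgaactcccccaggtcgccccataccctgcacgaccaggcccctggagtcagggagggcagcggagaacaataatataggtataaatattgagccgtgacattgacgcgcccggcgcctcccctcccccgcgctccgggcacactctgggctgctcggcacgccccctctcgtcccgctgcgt
Cdk4, chr10:127063285-127063534: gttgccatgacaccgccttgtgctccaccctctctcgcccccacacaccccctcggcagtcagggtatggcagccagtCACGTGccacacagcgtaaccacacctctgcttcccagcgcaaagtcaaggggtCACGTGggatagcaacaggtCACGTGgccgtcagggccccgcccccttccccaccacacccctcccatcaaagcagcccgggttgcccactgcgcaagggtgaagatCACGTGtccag
The Cdk4 window held 4 E-boxes, the Cdk6 window 1 and this Ccnd3 window 0. The E-box, which reads the same on both strands, was found in 6.02% of 32851 such windows of all genes. TGACGT, searched on both strands, was found in 6.47% of all windows and once in this Ccnd3 window. It was also found in the window of Cdkn2b, which did not pass the test, with 2 overlapping matches on opposite strands. The E2F site, searched on both strands as TTTCGCGC and TTTGGCGC, was found in 0.256% and 0.417% of all windows. None of the 10 start sites of these 7 genes held it (0 of 10). A match is a description of letters and not a bound site.

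Around these genes, other members of the Rb pathway were read from lists chosen by role, with earlier results of these data known. Among the 3 other inhibitors of the Cip/Kip and Ink4 families, 1 fell and 0 rose, against 5.63% of all genes that fell and 6.09% that rose. This was Cdkn1a, which encodes p21, with log2 signals of 10.05, 9.89 and 9.93 with the mimic, against 10.59, 10.46 and 10.52 with the control. Each mimic array lay below each control array, with a log2 fold change of -0.57 ± 0.07 (SE, adjusted p = 0.00093 by limma). Cdkn1c (p57) and Cdkn2d (p19 of the Ink4 family) had log2 fold changes of -0.02 and -0.10 and did not pass. The list's median was -0.10.

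Of the 12 pocket proteins, E2F factors and their DP partners, 2 rose and 4 fell, against 6.09% of all genes that rose and 5.63% that fell, with a median log2 fold change of -0.04. E2f6, a repressor that does not need pocket proteins, had log2 signals of 9.53, 9.49 and 9.56 with the mimic, against 9.01, 9.14 and 9.06 with the control, and rose by 0.46 ± 0.06 on the log2 scale (SE, adjusted p = 0.0017 by limma). E2f3, an activator bound by Rb, rose by 0.39 on the log2 scale, a call lost without control replicate 3 (0.36, limma adjusted p = 0.062). The atypical repressors E2f7 and E2f8 fell with log2 fold changes of -0.29 and -0.35, and the DP partners Tfdp1 and Tfdp2 with -0.25 and -0.24. These 4 calls moved with single arrays. With 1 array left out, between 0 and 2 of the 12 were called lower, namely 0 when mimic replicate 1 or control replicate 2 or 3 was dropped, 1 when mimic replicate 2 or 3 was, and 2 when control replicate 1 was. The Tfdp1 cluster with the most probe sets had a log2 fold change of -0.12 (limma adjusted p = 0.29). The relatives of Rb1, Rbl1 and Rbl2, had log2 fold changes of 0.0032 and 0.06 and did not pass, nor did E2f1 at -0.09.

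Cyclin E, cyclin A and Cdk2 act after the D-type cyclins. Of the 4 genes of that list with a cluster of their own, 1 fell and 0 rose, against the same shares of all genes, and the median log2 fold change was -0.20. Ccna2, cyclin A2, had log2 signals of 9.38, 9.35 and 9.35 with the mimic, against 9.65, 9.75 and 9.81 with the control, a log2 fold change of -0.38 ± 0.07 (SE, adjusted p = 0.0056 by limma). Cdk2 stood just outside the threshold at -0.24 (adjusted p = 0.0501 by limma), and 2 genes of the list fell with median centring and 3 with quantile normalization. Ccne1 had -0.16 (limma adjusted p = 0.13) and the phosphatase gene Cdc25a 0.18 (limma adjusted p = 0.19). Ccne2 shares a cluster with Ints8 and was not tested, and 10 of its 13 probe sets were lower in the authors' deposited table, 4 with p under 0.05.

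Of 15 classical targets of E2F, genes of DNA replication and nucleotide supply, 7 fell and 0 rose, against 5.63% of all genes that fell and 6.09% that rose. Their median log2 fold change was -0.21, against 0.0065 over all genes, and 19.2% of the brighter genes, at or above 7.27, were called in either direction. Mcm5, which encodes a subunit of the replicative helicase, had log2 signals of 7.96, 7.85 and 7.79 with the mimic, against 8.29, 8.41 and 8.22 with the control. Each mimic array lay below each control array, and the log2 fold change was -0.44 ± 0.08 (SE, adjusted p = 0.0050 by limma). The helicase subunit gene Mcm6 had -0.38, the origin licensing gene Cdc6 -0.41 and the ribonucleotide reductase gene Rrm2 -0.38, with Tyms and Mcm4 at -0.28 each. Mcm5 and Mcm6 kept the call with any single array left out. Cdc6, Rrm2 and Tyms each lost it in 4 of these 6 fits and Mcm4 in 5. Tyms and Mcm4 also lost it with the replicate number as a block, and Mcm4 with median centring. Mcm7, Mcm2 and Pcna, with log2 fold changes of 0.02, -0.08 and -0.13, did not pass, so the subunits of 1 helicase did not all pass the test. The number that fell was 3 when mimic replicate 2 or control replicate 2 or 3 was dropped, and 4 when mimic replicate 1 was.

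The last lists held genes that act on the stability or assembly of the cyclin complexes or on the Cdkn2a locus. Of 8 genes listed for the turnover of D-type cyclins and p27, 2 rose and 0 fell, against 6.09% of all genes that rose. Their median log2 fold change was 0.12, and the list includes Fbxw7, given here for its role with cyclin E. Fbxw7, the receptor that brings cyclin E to its ubiquitin ligase, had log2 signals of 9.24, 9.22 and 9.35 with the mimic, against 8.84, 8.87 and 8.93 with the control, a log2 fold change of 0.39 ± 0.07 (SE, adjusted p = 0.0044 by limma). Gsk3b, a kinase that marks cyclin D1 for export and breakdown, rose by 0.24 on the log2 scale, a call lost with any 1 array left out, where 1 gene of the list rose. Skp2 and Cks1b, which bring p27 to its ubiquitin ligase, had log2 fold changes of 0.10 and 0.15 and did not pass. None of the 4 genes of the Cdk-activating kinase and the chaperone Cdc37 passed (0 of 4, with log2 fold changes from -0.13 to 0.02 and unadjusted p of 0.13 or more). None of the 7 repressors of the Cdkn2a locus passed (0 of 7); Rnf2 was nearest, at 0.24 (unadjusted p = 0.0071, limma adjusted p = 0.057), and it was the 1 gene of the 7 with an unadjusted p under 0.05.

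**Figure D4:**
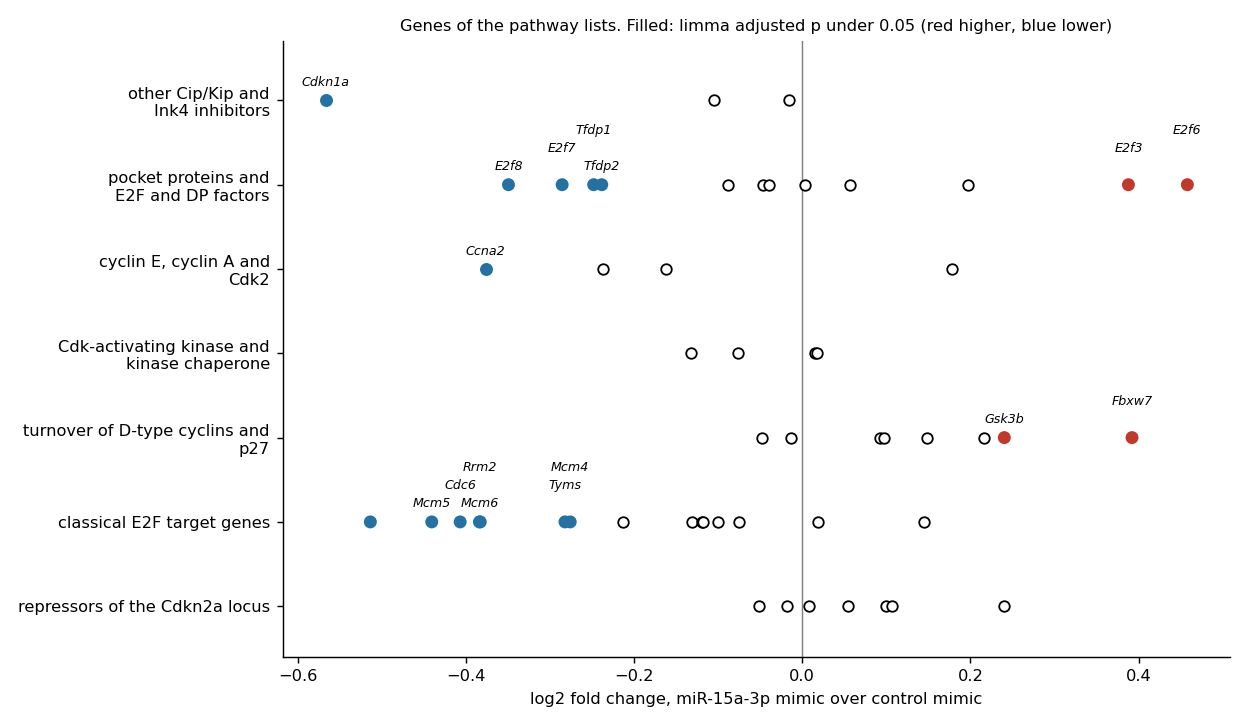
Log2 fold change, miR-15a-3p mimic over control mimic (horizontal axis), of every gene of the 7 pathway lists (rows), 1 point a gene. Filled points passed a limma adjusted p under 0.05, in red if higher and in blue if lower, and all but 1 are named. The E2F target list has 7 filled points, all below 0, and the lists of the Cdk-activating kinase and of Cdkn2a repressors have 0. Of all genes, 11.7% passed in either direction.

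The genes whose array profiles lay nearest to those of the 3 called genes were found by the root mean square difference of log2 signals over the 6 arrays, after each gene was centred on its own mean. For Ccnd1 these were Nagpa and Idnk, with differences of 0.0210 and 0.0225 and log2 fold changes of 0.29 and 0.28. For Ccnd3 they were Ecscr and Pmpca, with differences of 0.0228 and 0.0258 and log2 fold changes of -0.44 each. For Cdk6 they were Ect2, a cytokinesis gene, and Pon3, with differences of 0.0263 and 0.0296 and log2 fold changes of -0.43 and -0.42. Each pair was the nearest among 17676 genes, and the difference between the groups is part of the likeness.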

How the data were processed

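Total RNA of 6 transfected samples was hybridised to a whole-transcript mouse gene array, 3 arrays a group, and groups and replicate numbers were taken from the sample titles. The authors deposited log2 signals per transcript cluster, already summarised and normalized. The log2 scale was read from their range, 2.73 to 13.91, and no genome build is given in the sources used here. Tools listed in the submitters' processing notes are Partek, RMA, MAS5 and Affymetrix Expression Console, without role or version. A second table, per the file headers, holds the authors' exon-level ratio, unadjusted p-value and signed fold scores for 241419 probe sets. Its contrast variance is 0.833 times its error variance, as 2 against 3 arrays give (3 against 3 give 0.667). One more file holds those 1768 whose p is under 0.05 and whose signed fold is at most -2, 1 of them a Ccnd3 probe set.

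Each cluster took its name from the probe sets numbered after it and before the following cluster, with symbols updated through RefSeq (GRCm38.p6, names only). This gave 24115 clusters with 1 symbol, 834 with more and 10607 unnamed. The highest-mean cluster of a gene was used, which left 21124 genes.

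Groups were compared with limma 3.58.1 in R 4.3.3 (lmFit, then eBayes) over all 21124 genes with no filter and no block, two-sided, with Benjamini-Hochberg adjustment. "Rose" and "fell" mean an adjusted p under 0.05. The code was tested on simulated data. The 10 genes and the 7 lists (54 genes) were chosen with earlier results of these data known. Named were all 10 genes, up to 5 called genes of each list by smallest adjusted p, and the 2 nearest profiles of each called gene. One gene that this rule takes is counted with its list but not reported here. Tfdp2, Tyms, Mcm4 and the uncalled list genes were named after their values were seen. Alternatives were filters on dim genes, other scaling, a replicate block, the mean of a gene's clusters, limma with trend and robust, and each array left out. Using the cluster with the most probe sets was added after seeing the data.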

Additional observations from a re-analysis of the deposited data

How the results depend on the processing

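The directions of Ccnd1, Ccnd3 and Cdk6 held in every alternative run. The calls of Ccnd3 and Cdk6 did too, and the call of Ccnd1 held in all but 1. With 1 array left out, 676 to 1115 genes rose and 604 to 1119 fell, 0 to 2 of the 10 genes rose (0 without control replicate 3, 2 without mimic replicate 1, with Cdkn1b) and 7 to 15 of the list genes were called, against 17 with all arrays. In the same fits 1 to 2 of the E2F and DP list rose and 0 to 2 fell, 1 to 2 of the cyclin E and A list fell, 1 of the turnover list rose (1 in each), 3 to 7 E2F targets fell and 0 to 1 repressor of the Cdkn2a locus rose. Deviations from group means correlated at 0.0568, -0.15 and -0.00362 between the mimic and control arrays of numbers 1, 2 and 3. For arrays of different numbers, r ran from -0.245 (mimic replicate 3, control replicate 1) to 0.249 (mimic replicate 3, control replicate 2). Arrays of the same number thus did not stand out, which with 3 arrays a group does not settle whether they were paired. With the replicate number as a block, 884 genes rose and 843 fell, 11 list genes were called, 1 of the turnover list rose and 1 of the E2F and DP list fell, and the same 3 of the 10 genes were called. The cyclin E and A list had 2 falls under either filter on dim genes, median centring, the mean of clusters and limma with trend, and 3 with quantile normalization. The Cdkn2a repressor list had 1 rise under either filter, quantile normalization and limma with trend, and the mean of clusters gave 1 fall in the Cdk-activating kinase list. Values near 0 changed sign: Cdk4 was -0.0030 with median centring and ranged from -0.0263 to 0.0331 with 1 array left out, and Cdkn2b ranged from -0.0107 to 0.0967. The causes were not tested, and a fit that leaves 1 array out also has fewer arrays. No detection call was used here, so the dimmest genes may be background.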

Other observations

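Cyclins, cyclin-dependent kinases and their inhibitors outside the 10 genes were also taken by a simple pattern in their symbols. The pattern does not take every such gene, and Ccne2, without a cluster of its own, is not among them. These sets share Ccna2, Ccne1, Ccnh, Cdk2, Cdk7, Cdkn1a, Cdkn1c and Cdkn2d with the lists above. Of 21 cyclin genes, 1 rose and 5 fell, against 6.09% of all genes that rose and 5.63% that fell. The 5 were the mitotic cyclin Ccnb2 (log2 fold change -0.85), Ccna2, already given above, Ccnf (-0.44), and the G-type cyclins Ccng1 (-0.42) and Ccng2 (-0.28). Ccnf, which recruits targets to a ubiquitin ligase, was dim, averaging 6.62 with the mimic and 7.06 with the control. The 1 that rose was Ccnb1, with a log2 fold change of 0.42 ± 0.10 (SE, adjusted p = 0.029 by limma). Its control arrays were spread widely, with an SD of 0.22 (n = 3). Of 16 kinases, 1 rose and 1 fell, a share near the 11.7% of all genes called. Cdk8, a kinase of the Mediator complex of transcription, averaged 11.30 ± 0.0331 under the mimic and 10.65 ± 0.0938 under the control (n = 3, SD), with a log2 fold change of 0.65 ± 0.07 (SE, adjusted p = 0.00041 by limma). Cdk16, a kinase activated by cyclin Y, averaged 9.41 ± 0.0314 under the mimic and 9.94 ± 0.0313 under the control (n = 3, SD), with a log2 fold change of -0.53 ± 0.06 (SE, adjusted p = 0.00053 by limma). Of 4 genes with an inhibitor symbol, 0 rose and 2 fell, against 6.09% of all genes that rose and 5.63% that fell. Those that fell were Cdkn1a, already given above, and Cdkn3, with a log2 fold change of -0.40 ± 0.07 (SE, adjusted p = 0.0039 by limma). The genes of these sets not given above were named after their values were seen. Their calls were not followed through the alternative runs.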
